A study of Mus musculus with 24 samples.

Results

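Tumor necrosis factor (TNF) superfamily ligands and receptors were followed through 10 genes in Ku70-deficient mouse embryonic fibroblasts (MEFs) exposed to bisphenol A (BPA), to the oxidant potassium bromate (KBrO3), or to both. The genes were 4 ligands (Tnf, Tnfsf9, Tnfsf10 and Tnfsf11), 5 receptors (Tnfrsf1a, Tnfrsf1b, Tnfrsf11b, Tnfrsf12a and Cd40) and the receptor adaptor Traf1, out of 19505 genes with a named probe on the array. They were chosen with earlier results of these data known. Their probes were taken by name, through the gene symbol the scanner files give each probe. The members had 12 probes, since Tnfsf11 and Tnfrsf1b had 2 probes each. All cells were immortalized and lacked Ku70 (Xrcc6), a DNA end-joining protein, so no group had an intact repair pathway to compare with. The first set, of 15 arrays, held untreated cells labelled 4 hr, cells 4 hr and 24 hr after a 1 hr exposure to 20 mM KBrO3, and cells co-exposed to KBrO3 and 150 µM BPA at the same times, where BPA was given before, during and after KBrO3. The second set, of 9 arrays, held untreated cells with no stated time and cells in 150 µM BPA labelled 4 hr or 24 hr, an exposure that the study's methods give as an hour longer than the labels do. Each group had 3 arrays. There was no untreated group labelled 24 hr. In the KBrO3 set each 24 hr value is thus a difference from untreated cells labelled 4 hr. In the BPA set the match in time is unknown at both 4 hr and 24 hr. Exposure and time in culture cannot be told apart in these comparisons.

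TNF superfamily ligands are made as membrane proteins, often cut free, and bind as trimers to receptors of a matching family. Some receptors carry a death domain that can lead to apoptosis, others recruit TRAF adaptors that lead to NF-kB and MAP kinase signaling, and decoy receptors bind a ligand without passing on a signal. Fibroblasts are known both to respond to TNF and to produce RANKL (Tnfsf11) and its decoy osteoprotegerin (Tnfrsf11b), the pair that sets osteoclast formation in bone.

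Between 57.7% and 68.1% of spots were well above background on the arrays of the KBrO3 set and between 76.4% and 79.4% in the BPA set. The median residual SD of a tested probe was 0.11 on the log2 scale in the KBrO3 set and 0.32 in the BPA set, so the same difference carried a larger error in the BPA set. All 12 fibroblast markers were above background on every untreated array of both sets, while Ptprc, the defining marker of blood cells, was above background on no array. The summed level of the fibroblast markers, relative to the 75th percentile of each array, ranged from 1858 to 1971 on the untreated arrays of the KBrO3 set, from 712 to 799 at 24 hr after KBrO3 and from 499 to 580 at 24 hr of co-exposure. The summed level of the 10 hematopoietic markers was 0.73 to 0.88 on those untreated arrays and 1.29 to 1.41 at 4 hr after KBrO3. The part of either shift in the results below was not tested, and in such bulk samples fewer cells of a type and less RNA per cell cannot be told apart. The study's methods call the arrays of a group biological replicates.

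The promoters of 5 members whose signal moved by the largest amounts are shown, because Tnf and Tnfsf10 moved in opposite directions at 4 hr after KBrO3 and Tnfsf11 fell below background, and their sequences can be set beside those values. RefSeq sequence of the 250 bases before the annotated start (GRCm38.p6) was at hand for 7 of the 10 members. Each is written 5′ to 3′ on the strand of the gene, with TATAA and GGGCGG motifs, or their reverse complements, in capitals.
Tnf, chr17:35202008-35202257, minus strand: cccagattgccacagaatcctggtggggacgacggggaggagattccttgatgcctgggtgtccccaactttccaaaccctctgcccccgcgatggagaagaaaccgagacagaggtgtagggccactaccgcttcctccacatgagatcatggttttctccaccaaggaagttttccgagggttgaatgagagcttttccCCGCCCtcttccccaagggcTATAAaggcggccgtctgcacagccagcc
Tnfsf10, chr3:27316827-27317076, plus strand: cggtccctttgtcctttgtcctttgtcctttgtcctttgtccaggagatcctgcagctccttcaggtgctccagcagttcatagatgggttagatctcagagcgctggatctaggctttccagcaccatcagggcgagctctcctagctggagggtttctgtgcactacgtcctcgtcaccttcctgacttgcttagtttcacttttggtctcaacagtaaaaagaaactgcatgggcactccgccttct
Tnfsf11, chr14:78308044-78308293, minus strand: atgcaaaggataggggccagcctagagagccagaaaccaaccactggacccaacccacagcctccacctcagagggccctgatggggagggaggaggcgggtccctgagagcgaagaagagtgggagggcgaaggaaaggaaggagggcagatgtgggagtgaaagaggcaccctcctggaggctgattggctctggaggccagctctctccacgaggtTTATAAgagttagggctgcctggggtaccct
Tnfrsf1b, chr4:145246871-145247120, minus strand: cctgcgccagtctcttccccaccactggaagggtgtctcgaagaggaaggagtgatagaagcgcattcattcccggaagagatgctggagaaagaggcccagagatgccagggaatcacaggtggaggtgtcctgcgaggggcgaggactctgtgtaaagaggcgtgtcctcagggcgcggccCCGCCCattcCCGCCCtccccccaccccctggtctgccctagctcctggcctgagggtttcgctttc
Tnfrsf12a, chr17:23677450-23677699, minus strand: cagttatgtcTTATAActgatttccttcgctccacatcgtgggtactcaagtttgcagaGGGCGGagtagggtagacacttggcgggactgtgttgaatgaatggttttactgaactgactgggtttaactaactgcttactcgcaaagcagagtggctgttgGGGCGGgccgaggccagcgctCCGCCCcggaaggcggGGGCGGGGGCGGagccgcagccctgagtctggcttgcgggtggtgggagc
On either strand, TATAA was present in 22.8% and GGGCGG, the GC box, in 32.7% of all 32851 promoters of that table. Tnf and Tnfsf11 carried TATAA within 31 bases of the start. Tnfrsf12a held 5 GC boxes and Tnfrsf1b held 2, Tnf held 1, and Tnfsf10 held neither motif. Neither the NF-kB consensus, present in 3.9% of promoters, nor the AP-1 letters TGANTCA, present in 6.75%, was found in the window of any of the 7 members. These matches describe letters in a short window and were not tested against the array values.

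**Figure D1:**
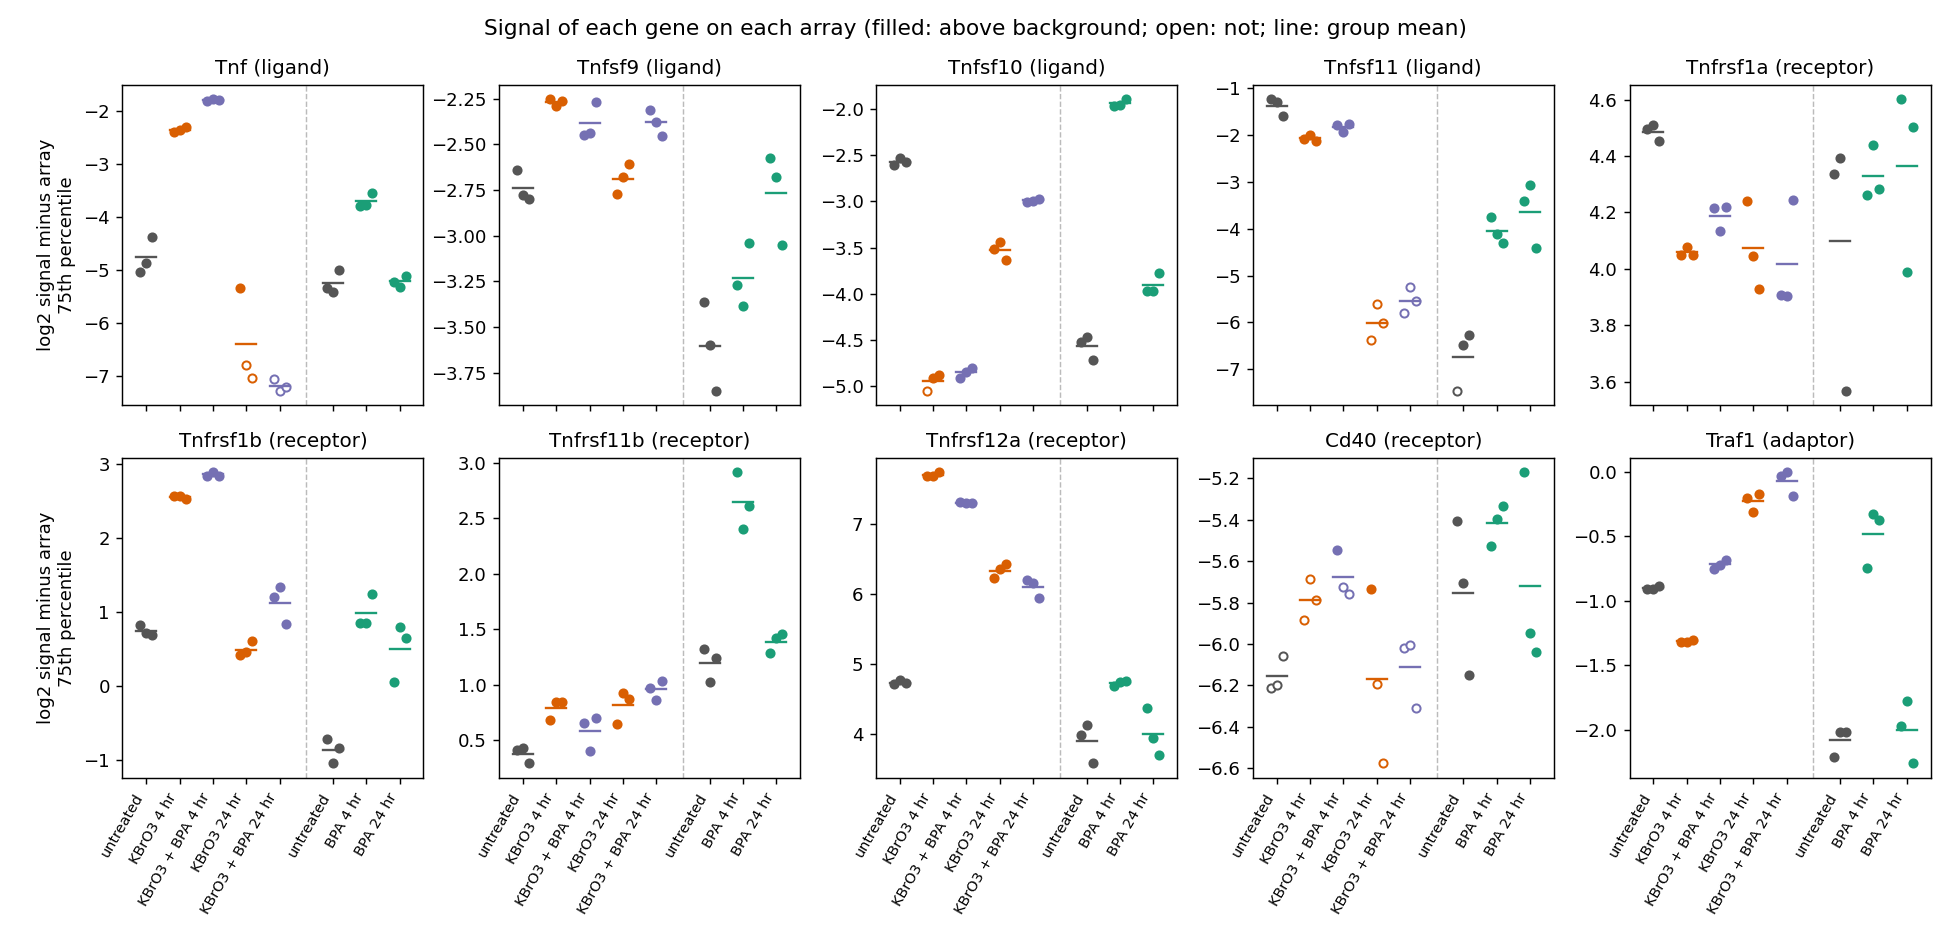
Signal of each member on every array, as log2 signal minus the 75th percentile of the array (vertical axis, own range for each gene), for the KBrO3 set left of the dashed line and the BPA set right of it. Points are arrays, lines are group means and open points were not well above background. Tnf stands between -2.41 and -1.79 in both 4 hr KBrO3 groups and between -7.28 and -5.34 in both 24 hr groups.

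Signals are given as the log2 signal relative to the 75th percentile of the array, so that 0 is the level of a probe at that percentile, and the level of a probe is not compared with that of another probe. A gene is called changed when its p from limma, adjusted by Benjamini-Hochberg for every probe tested in that set, was below 0.05 and its fold was beyond 1.5. At 4 hr after KBrO3, 3 of the 9 members tested rose (Tnf, Tnfrsf1b and Tnfrsf12a) and 2 fell (Tnfsf10 and Tnfsf11), where 44% of all genes tested were called. By 24 hr after KBrO3, Tnfrsf12a and Traf1 were higher and Tnf, Tnfsf10 and Tnfsf11 were lower, 5 of 9 against 33.7% of all genes. Co-exposure gave 4 calls of 9 at 4 hr (Tnf, Tnfrsf1b and Tnfrsf12a higher, Tnfsf10 lower), where 54.7% of all genes were called, and 4 of 9 at 24 hr (Tnfrsf12a and Traf1 higher, Tnf and Tnfsf11 lower), where 39.6% were. The members' shares lay on both sides of these shares of all genes, so the counts in the KBrO3 set alone are no result about the family. With BPA alone, 6 of 10 members rose at 4 hr (Tnf, Tnfsf10, Tnfsf11, Tnfrsf1b, Tnfrsf11b and Traf1) and none fell, where 4.69% of all genes were called. After 24 hr of BPA, 2 of 10 were higher (Tnfsf11 and Tnfrsf1b), where 4.3% of all genes were called. Under normexp background correction neither time of BPA alone had a called member. At 4 hr the differences were then 1.59 for Tnfrsf1b, 1.41 for Tnfrsf11b, 1.31 for Tnfsf10, 1.15 for Traf1, 0.70 for Tnfsf11 and 0.48 for Tnf, with limma adjusted p values of 0.219 or more, and at 24 hr they were 1.21 for Tnfrsf1b and 0.20 for Tnfsf11. With spots far below their local background raised 6 and 2 were called, where at 4 hr Tnfrsf12a was among them and Tnfsf11 was not. The median difference over the members was 1.502 at 4 hr of BPA, against -0.06 over all genes, and 0.23 at 24 hr, against 0.02. Over the 66 other family genes the median was 0.15 at 4 hr of BPA, with 8 of 59 tested called higher and 1 lower. Because the members were chosen with earlier results of these data known, neither their counts nor their medians test the family.

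**Figure D2:**
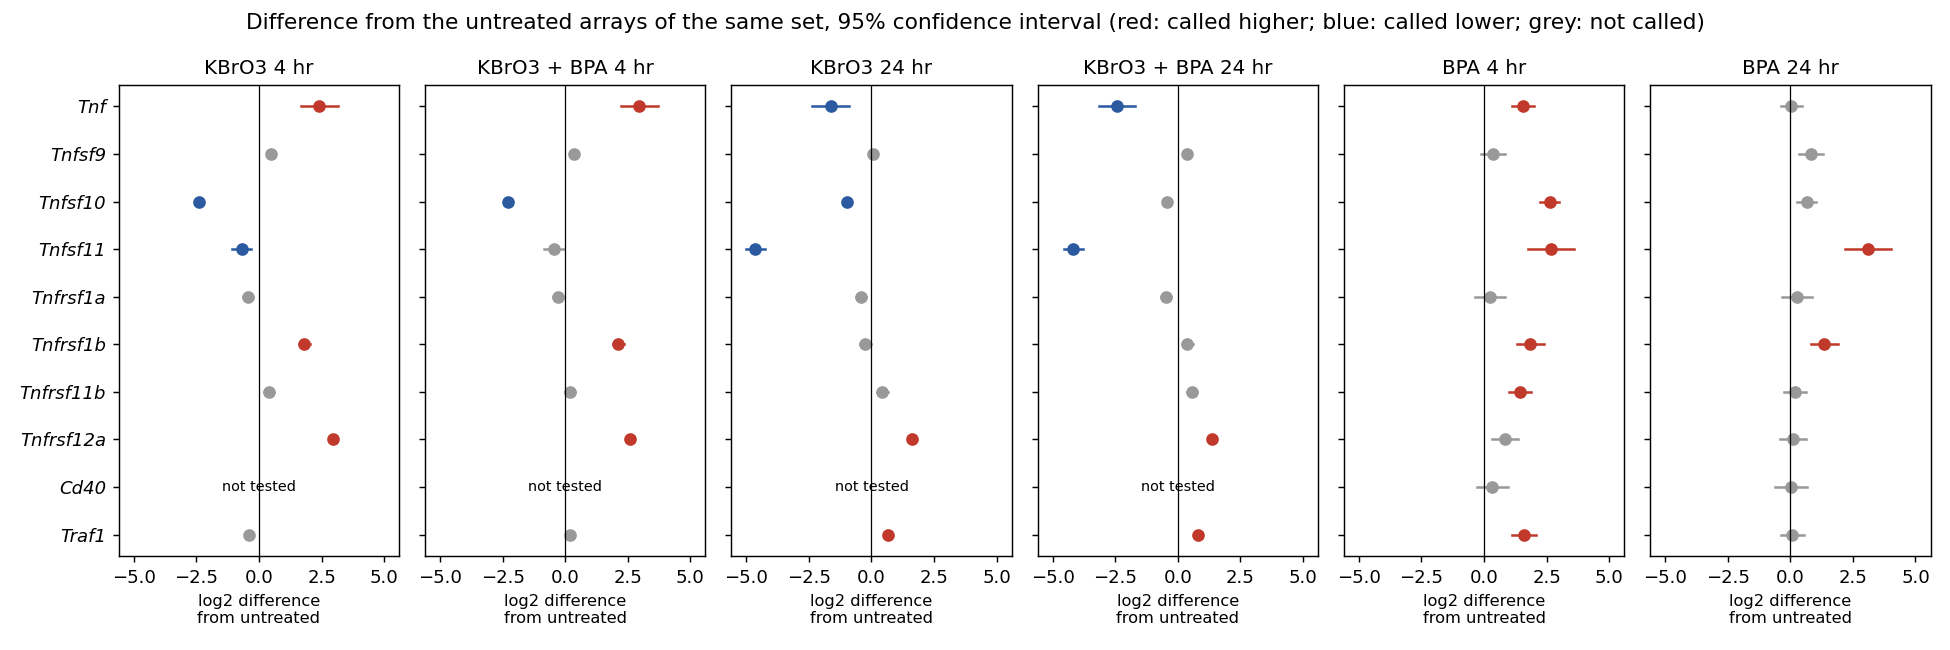
Log2 difference of each member from the untreated arrays of its own set (horizontal axis) with the 95% confidence interval of the limma fit, 3 arrays a group. Red points were called higher, blue points lower and grey points were not called. Tnfsf10 is blue at 4 hr of KBrO3 (-2.38) and of co-exposure (-2.28) and red at 4 hr of BPA (2.63).

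Among the ligands, Tnf, the cytokine that names the family and a strong inducer of inflammation, rose early and was low later. Its probe (chr17:33296067-33296126, mm7, 10 spots) read -5.04, -4.87 and -4.39 on the untreated arrays of the KBrO3 set. At 4 hr after KBrO3 the arrays read -2.41, -2.36 and -2.31, and with co-exposure they read -1.82, -1.79 and -1.80. Both 4 hr groups lay above every untreated array. The rise was 2.40 ± 0.34 (SE) on the log2 scale, or 5.29-fold (limma adjusted p = 3.4e-05), after KBrO3 and 2.96 ± 0.34, or 7.77-fold (limma adjusted p = 4.67e-06), with co-exposure. Both calls were lost under normexp background correction, at 0.13 and 0.52 (limma adjusted p = 0.807 and 0.33), and kept with spots far below their local background raised, at 1.25 and 1.63. By 24 hr after KBrO3 the values were -5.34, -6.80 and -7.05, and the probe was above background on the first of these 3 arrays. With co-exposure they were -7.07, -7.28 and -7.21 at 24 hr, and none was above background. Every 24 hr array lay below the untreated arrays. Tnf was called lower at 24 hr after KBrO3 (limma adjusted p = 0.000996), with a fitted difference of -1.63 that is not a measured size because 2 of its 3 arrays were not above background, and this call was kept in all 15 fits that left out an array. By 24 hr of co-exposure Tnf was lower than in untreated cells by at least 1.41-fold (limma adjusted p = 3.81e-05), which is a bound because the dim side was not measured.

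BPA alone moved Tnf at the early time. The untreated arrays of the BPA set read -5.35, -5.41 and -5.01, those at 4 hr of BPA read -3.79, -3.77 and -3.55, and those at 24 hr read -5.23, -5.32 and -5.11. The 4 hr arrays stood above all others of the set, while the 24 hr arrays overlapped the untreated ones. The rise at 4 hr was 1.56 ± 0.19, or 2.94-fold (limma adjusted p = 0.00324), and the difference at 24 hr was 0.03 (95% confidence interval -0.39 to 0.46, limma adjusted p = 0.949).

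Tnfsf10 encodes TRAIL, a ligand that can trigger apoptosis through death receptors, and it fell after KBrO3 and rose with BPA. Its probe lies at chr3:27151623-27151682 (mm7). Untreated arrays of the KBrO3 set read -2.61, -2.53 and -2.57, and those at 4 hr after KBrO3 read -5.05, -4.91 and -4.88, the first of them not above background. With co-exposure the 4 hr arrays read -4.91, -4.84 and -4.81. The groups did not overlap, and Tnfsf10 was 5.19-fold lower after KBrO3 (log2 difference -2.38 ± 0.06, limma adjusted p = 4.27e-12) and 4.86-fold lower with co-exposure (-2.28 ± 0.06, limma adjusted p = 4.51e-12). Under other settings both calls were kept, but the differences ranged from -2.45 to -1.16 after KBrO3 and from -2.56 to -1.32 with co-exposure. At 24 hr the arrays read -3.52, -3.44 and -3.63 after KBrO3 and -3.00, -2.99 and -2.98 with co-exposure, which were still below the untreated arrays. The 24 hr difference was -0.96 after KBrO3 (1.95-fold lower, limma adjusted p = 2.52e-08) and -0.42 with co-exposure, which did not pass the fold of 1.5 but was -1.04 and called under normexp background correction (limma adjusted p = 0.0111). In the BPA set untreated arrays read -4.52, -4.47 and -4.71. Untreated arrays of the KBrO3 set had read between -2.61 and -2.53, and this gap was not tested. Arrays at 4 hr of BPA read -1.96, -1.96 and -1.90. Tnfsf10 was thus 6.19-fold higher at 4 hr of BPA (2.63 ± 0.17, limma adjusted p = 0.000187), the one member that also passed a Bonferroni p below 0.01 there, as did 0.11% of all genes. At 24 hr of BPA the arrays read -3.98, -3.97 and -3.77, above the untreated ones, but the difference of 0.66 had a limma adjusted p of 0.0719. It was called in an error-weighted linear model without moderation, and over the other settings it ranged from -0.37 to 0.78.

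Tnfsf11 encodes RANKL, the ligand that drives osteoclast formation, and its signal dropped below background at 24 hr after KBrO3. The brighter of its 2 probes (chr14:72958504-72958563, mm7) read -1.24, -1.28 and -1.59 on untreated arrays of the KBrO3 set. At 4 hr it read -2.07, -2.001 and -2.11 after KBrO3 and -1.78, -1.93 and -1.76 with co-exposure. These 4 hr groups stood below the untreated arrays by 0.69 ± 0.18 on the log2 scale after KBrO3 (1.62-fold lower, limma adjusted p = 0.00394) and by a log2 difference of -0.45 with co-exposure, which did not pass the fold. The co-exposure difference was called under scaling to the array median and under normexp background correction, and ranged from -0.63 to -0.19 over the other settings. With slide as a fixed block the 4 hr difference after KBrO3 was -0.48 (limma adjusted p = 0.0656), and the dimmer probe gave -0.39 (limma adjusted p = 0.175) and, with co-exposure, 0.25 (limma adjusted p = 0.367). The 24 hr arrays read -6.39, -5.61 and -6.02 after KBrO3 and -5.80, -5.25 and -5.55 with co-exposure, none of them above background. Tnfsf11 was at least 18.6-fold lower at 24 hr after KBrO3 (limma adjusted p = 5.36e-10) and at least 14.8-fold lower with co-exposure (limma adjusted p = 8.73e-10). These bounds hold only under the processing used here. Under other settings both calls were kept, with fitted log2 differences from -4.64 to -2.81 after KBrO3 and from -4.25 to -2.51 with co-exposure. The dimmer probe (chr14:72958725-72958784) gave at least 10.3-fold and at least 8.21-fold lower.

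With BPA alone Tnfsf11 started from a far lower reading. Untreated arrays read -7.46, -6.48 and -6.28 with the brighter probe, the first not above background, where untreated arrays of the KBrO3 set had read between -1.59 and -1.24. The sets were extracted with different software versions and normalized separately, and this gap was not tested. With BPA the arrays read -3.74, -4.11 and -4.31 at 4 hr and -3.41, -3.07 and -4.42 at 24 hr, all above the untreated arrays. Tnfsf11 rose by 2.69 ± 0.41 at 4 hr (6.43-fold, limma adjusted p = 0.00846) and by 3.11 ± 0.41 at 24 hr (8.63-fold, limma adjusted p = 0.00653). The dimmer probe rose by 3.06 and 3.28, so both probes gave the same calls with BPA alone. In an error-weighted linear model without moderation the brighter probe was at 2.48 and 2.92 and neither call passed (adjusted p = 0.0641 and 0.0509). Under normexp background correction with the spots far below their background raised, the 4 hr rise of the brighter probe was 0.91 (limma adjusted p = 0.0571).

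Tnfsf9 encodes 4-1BBL, a costimulatory ligand for T cells, and it was called in no comparison with untreated cells. Its probe (chr17:55318447-55318506, mm7) read between -2.80 and -2.64 on untreated arrays of the KBrO3 set and between -2.29 and -2.25 at 4 hr after KBrO3. The groups did not overlap, but the difference of 0.47 was 1.38-fold, under the fold required. Under normexp background correction the 4 hr differences were -0.32 after KBrO3 and -0.41 with co-exposure, neither called (limma adjusted p = 0.33 and 0.228), and Tnfsf9 was called lower at 24 hr after KBrO3 (-0.78, limma adjusted p = 0.029). Scaling to the array median gave a call in the other direction at 24 hr of co-exposure (0.67). Its readings in the BPA set were -3.36, -3.60 and -3.85 untreated and -2.58, -2.68 and -3.05 at 24 hr of BPA, which also did not overlap. That difference was 0.83 ± 0.21, or 1.78-fold (limma adjusted p = 0.0731).

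**Figure D3:**
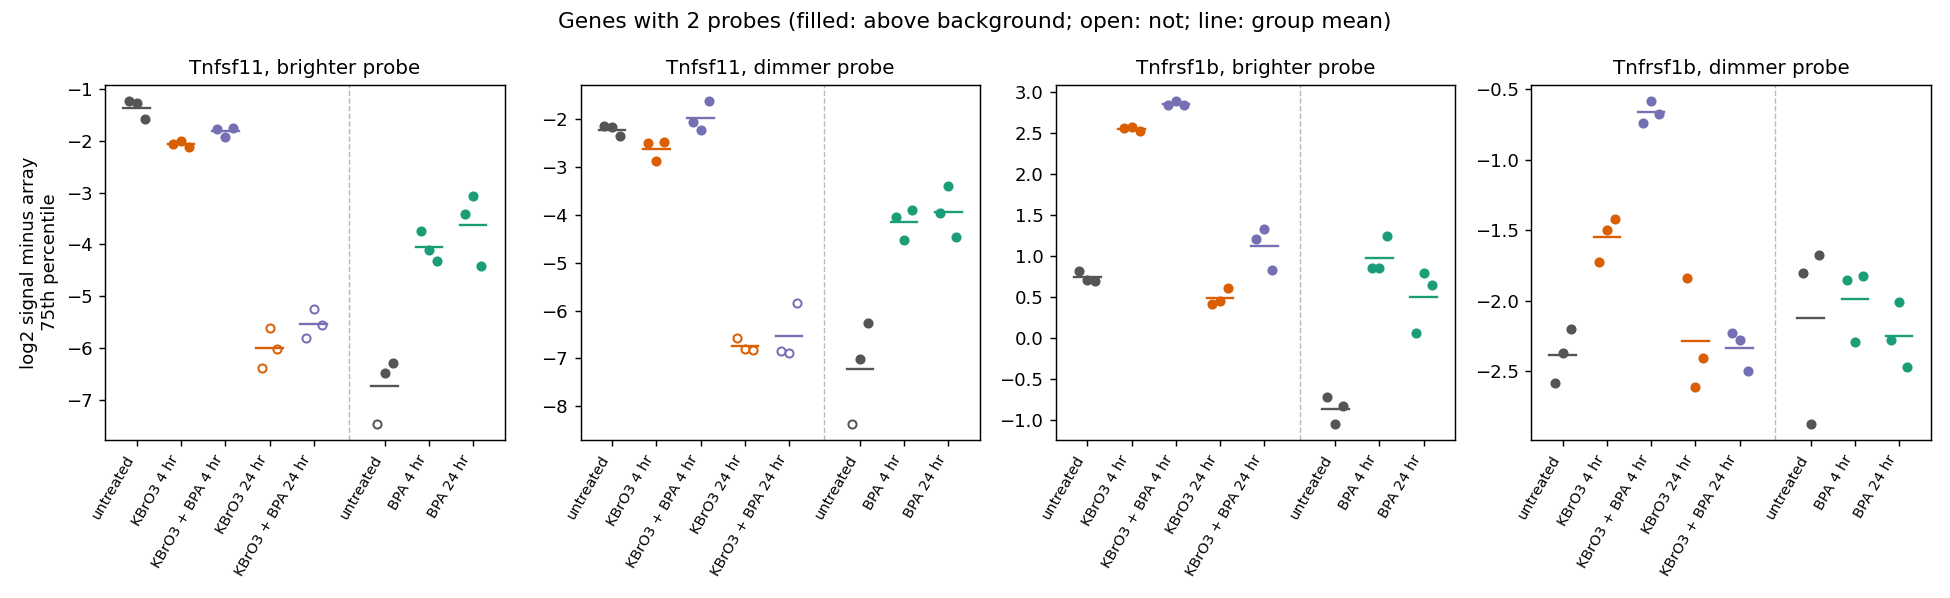
Tnfsf11 and Tnfrsf1b through each of their 2 probes, as log2 signal minus the 75th percentile of the array, with points, lines and open symbols as in the plot of all members. In the BPA set the brighter Tnfrsf1b probe is between -1.05 and -0.72 untreated and 0.85 or higher at 4 hr, while the dimmer probe overlaps between those groups.

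Of the receptors, Tnfrsf12a, the Fn14 receptor for the TWEAK ligand, had the largest rise of any member after KBrO3. Its probe (chr17:21855654-21855713, mm7) read 4.70, 4.76 and 4.72 on untreated arrays, 7.68, 7.68 and 7.74 at 4 hr after KBrO3 and 7.31, 7.30 and 7.30 at 4 hr of co-exposure. Both 4 hr groups stood well above the untreated arrays, and co-exposure stood below KBrO3. The rise was 2.97 ± 0.07, or 7.84-fold (limma adjusted p = 2.35e-12), after KBrO3 and 2.57 ± 0.07, or 5.95-fold (limma adjusted p = 5.54e-12), with co-exposure. At 24 hr the arrays read 6.22, 6.35 and 6.43 after KBrO3 and 6.20, 6.16 and 5.95 with co-exposure. Tnfrsf12a was then still 3.04-fold (limma adjusted p = 1.05e-09) and 2.59-fold (limma adjusted p = 2.64e-09) above untreated cells. With BPA alone it read 3.97, 4.12 and 3.57 untreated and 4.68, 4.73 and 4.76 at 4 hr, which did not overlap. The difference of 0.83 ± 0.23 was not called (limma adjusted p = 0.0824), and the 24 hr difference was 0.11.

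The TNF receptors proper were not called alike, and the difference between them was not tested. Tnfrsf1a, the death domain receptor TNFR1, was called in no comparison, though under quantile normalization it was called lower at 4 hr after KBrO3 (-0.63, limma adjusted p = 0.000116). Its probe (chr6:125388661-125388720, mm7, 10 spots) read between 4.46 and 4.51 on untreated arrays and between 3.90 and 4.24 on the 12 treated arrays of the KBrO3 set. All treated arrays were thus below the untreated ones, by log2 differences of -0.47 to -0.30, which were under the fold of 1.5. Its differences in the BPA set were 0.23 and 0.26, with limma adjusted p values of 0.689 and 0.652 and overlapping arrays.

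Tnfrsf1b, the TNFR2 receptor that lacks a death domain and recruits TRAF adaptors, rose at 4 hr in all 3 exposures. The brighter probe (chr4:144626830-144626889, mm7, 10 spots) read 0.82, 0.71 and 0.69 on untreated arrays, 2.56, 2.57 and 2.52 at 4 hr after KBrO3 and 2.84, 2.88 and 2.84 at 4 hr of co-exposure. The rise was 1.81 ± 0.10, or 3.50-fold (limma adjusted p = 6.37e-09), and 2.11 ± 0.10, or 4.32-fold (limma adjusted p = 1.24e-09). The dimmer probe (chr4:144635392-144635965, mm7) gave rises of 0.84 (limma adjusted p = 0.000757) and 1.72 (limma adjusted p = 1.29e-06). At 24 hr the brighter probe read 0.41, 0.45 and 0.61 after KBrO3 and 1.21, 1.33 and 0.83 with co-exposure. The differences from untreated cells, -0.25 and 0.38, were not called. The BPA set gave -0.72, -1.05 and -0.83 untreated, 0.85, 0.85 and 1.24 at 4 hr and 0.06, 0.79 and 0.65 at 24 hr, with no overlap. The rise was 1.85 ± 0.24, or 3.60-fold (limma adjusted p = 0.00443), at 4 hr and 1.37 ± 0.24, or 2.58-fold (limma adjusted p = 0.0182), at 24 hr. The dimmer probe did not show it, with differences of 0.13 (limma adjusted p = 0.857) and -0.13 (limma adjusted p = 0.877), so the change with BPA alone rests on a single probe. Without untreated replicate 2 or 3, or BPA 24 hr replicate 2 or 3, the 24 hr call of the brighter probe was also lost, with limma adjusted p values of 0.0501 to 0.0664.

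Tnfrsf11b encodes osteoprotegerin, the secreted decoy that binds RANKL. Its probe (chr15:54311325-54311384, mm7) read between 0.29 and 0.43 on untreated arrays of the KBrO3 set and between 0.41 and 1.04 on the treated ones. Its differences of 0.21 to 0.58 were under the fold of 1.5. The value of 0.58, at 24 hr of co-exposure, lay at the edge of that fold, and it was called under scaling to the array median (0.90), under normexp background correction (0.65), with spots far below their background raised (0.59) and in 3 of 15 fits that left out an array. Scaling to the array median also gave a call at 24 hr after KBrO3 (0.59). In the BPA set it read 1.32, 1.02 and 1.24 untreated, 2.91, 2.40 and 2.61 at 4 hr and 1.28, 1.42 and 1.45 at 24 hr. The 4 hr arrays stood above the rest, a rise of 1.45 ± 0.20, or 2.73-fold (limma adjusted p = 0.00536), and the 24 hr difference was 0.19 (limma adjusted p = 0.661). Thus the ligand RANKL and its decoy were both called higher at 4 hr of BPA, and RANKL but not its decoy at 24 hr, a difference between the genes that was not tested.

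Cd40, the receptor for the T cell ligand CD40L, was not above background on most arrays of the KBrO3 set. Its probe (chr2:164811455-164811514, mm7, 10 spots) was above background on 2 of the 15 arrays of the KBrO3 set, too few to be tested there. On the 9 arrays of the BPA set, all above background, it read between -6.15 and -5.17 with overlapping groups, and its differences of 0.34 and 0.04 had limma adjusted p values of 0.561 and 0.966.

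Traf1, an adaptor that binds TNFR2 and CD40 tails and is a known NF-kB target, went opposite ways with KBrO3 over time. Its probe (chr2:34950673-34950732, mm7) read -0.91, -0.91 and -0.89 untreated, -1.32, -1.32 and -1.30 at 4 hr after KBrO3 and -0.20, -0.31 and -0.17 at 24 hr. The 4 hr difference of -0.41 was under the fold of 1.5, while the 24 hr rise was 0.67 ± 0.05, or 1.60-fold (limma adjusted p = 2.19e-07). With co-exposure the arrays read -0.75, -0.72 and -0.68 at 4 hr and between -0.19 and 0.00 at 24 hr, where Traf1 was 1.77-fold higher than untreated (limma adjusted p = 2.6e-08). Under normexp background correction the 24 hr differences were 0.40 and 0.52, below the fold of 1.5. Its readings in the BPA set were -2.21, -2.02 and -2.02 untreated, -0.74, -0.33 and -0.38 at 4 hr and -1.97, -1.77 and -2.26 at 24 hr. The 4 hr arrays stood apart from both other groups, a rise of 1.60 ± 0.21, or 3.03-fold (limma adjusted p = 0.00429), and the 24 hr difference was 0.08.

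Slides held several groups in places, each slide being 1 scan. In the KBrO3 set, untreated replicate 3 shared a slide with the arrays at 4 hr after KBrO3, and within that slide the differences were 2.03 for Tnf, -2.38 for Tnfsf10, -0.48 for Tnfsf11, 1.86 for Tnfrsf1b and 2.98 for Tnfrsf12a. In the BPA set, untreated replicate 1 shared a slide with BPA 4 hr replicates 1 and 3, where the differences were 1.69 for Tnf, 2.59 for Tnfsf10, 3.44 for Tnfsf11, 1.76 for Tnfrsf1b, 1.44 for Tnfrsf11b and 1.65 for Traf1. With slide as a fixed block none of the 6 calls at 4 hr of BPA passed, with limma adjusted p values of 0.156 to 0.247 on effects of 1.44 to 3.44. With slide as a random block all 6 were kept. The other treated groups of the KBrO3 set shared no slide with untreated arrays, so slide and treatment cannot be told apart there.

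**Figure D4:**
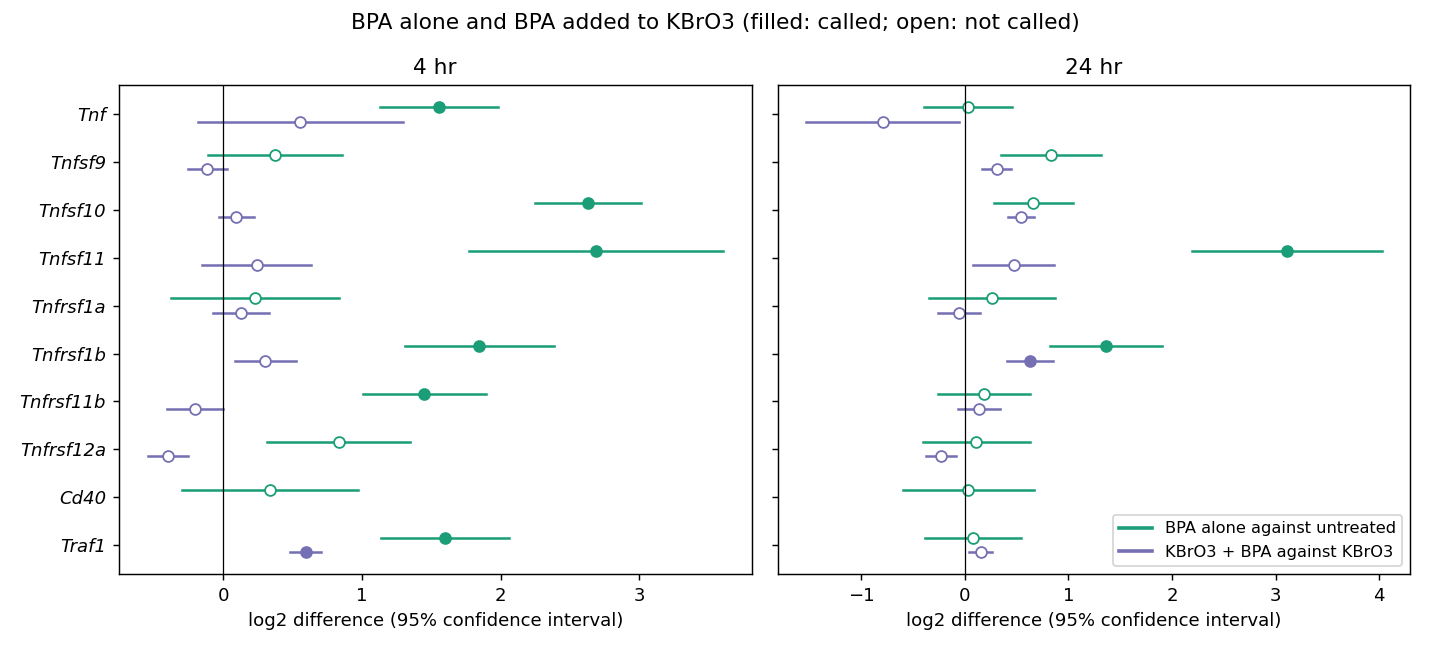
Log2 difference (horizontal axis, 95% confidence interval, 3 arrays a group) made by BPA alone against untreated cells and by BPA added to KBrO3 against KBrO3, at 4 hr and 24 hr. Filled points were called. At 4 hr Tnfsf10 is at 2.63 with BPA alone and at 0.10 with BPA added.

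BPA added to KBrO3 was then compared with KBrO3 itself. At 4 hr 1 of 9 members was called, Traf1, where 19.9% of all genes were called. Its values of -0.75, -0.72 and -0.68 were above the -1.32 to -1.30 after KBrO3, a difference of 0.60 ± 0.05, or 1.51-fold (limma adjusted p = 2.41e-06), at the edge of the fold required and under it without co-exposure replicate 3 (0.58) or with slide as a random block (0.56). No slide held both of these 4 hr groups, so the treatment cannot be told apart from the slide. At 24 hr 1 of 9 was called, Tnfrsf1b through its brighter probe, where 14.1% of all genes were called, and 4 and 3 of 9 were called under quantile normalization and scaling to the array median. Neither count is a result about the family, since both are near the share of all genes. Tnfrsf1b was 1.55-fold higher (0.63 ± 0.10, limma adjusted p = 0.000297), 0.53 and no longer past the fold without co-exposure replicate 2, and -0.05 by the dimmer probe. Tnfrsf12a was lower with BPA added by a log2 difference of -0.40 at 4 hr and Tnfsf10 was higher by 0.54 at 24 hr, neither past the fold. The dimmer probes were called higher with BPA added at 4 hr where the brighter ones were not, at 0.65 for Tnfsf11 (limma adjusted p = 0.0429) and 0.88 for Tnfrsf1b (limma adjusted p = 0.000954). For Tnf the 4 hr groups did not overlap and had SDs of 0.052 after KBrO3 and 0.015 with co-exposure. The difference of 0.56 was not called, with a confidence interval of -0.18 to 1.29 that rests on the spread of all 5 groups of the set, the 24 hr group after KBrO3 with its SD of 0.92 included.

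The effect of BPA at 4 hr was then compared between the sets, as the difference of the difference made by BPA added to KBrO3 and that made by BPA alone, in a limma fit of all 24 arrays with a weight for each set. It was lower by over 1.5-fold for 6 of 9 members, where 9.26% of all genes were called, while 2 were called under normexp background correction and 1 at the Bonferroni threshold. The largest was Tnfsf10, at 0.10 with BPA added and 2.63 alone, a gap of -2.53 ± 0.17 (limma adjusted p = 3.42e-08). Tnfsf11 had a gap of -2.44 (limma adjusted p = 0.00851), Tnfrsf11b of -1.65 (limma adjusted p = 0.000541), Tnfrsf1b of -1.54 (limma adjusted p = 0.00329), Tnfrsf12a of -1.23 (limma adjusted p = 0.00169) and Traf1 of -1.003 (limma adjusted p = 0.0014). The dimmer Tnfrsf1b probe gave 0.75 (limma adjusted p = 0.366). At 24 hr 1 of 9 was called, Tnfsf11 with a gap of -2.64 (limma adjusted p = 0.0115), where 3.3% of all genes were called, but both sides of its KBrO3 comparison were below background, so the size is not measured, and the call was lost without untreated replicate 1 of the BPA set (-2.28, limma adjusted p = 0.0567) or BPA 24 hr replicate 2 (-2.35, limma adjusted p = 0.0776). In this comparison the set cannot be told apart from the presence of KBrO3. The BPA exposures were equally long by the study's methods and an hour longer in co-exposed cells by the labels.

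Between 4 hr and 24 hr the same 6 members were called in both KBrO3 exposures, with the same directions. Tnf, Tnfsf11, Tnfrsf1b and Tnfrsf12a were lower at 24 hr than at 4 hr and Tnfsf10 and Traf1 were higher, where 48.1% of all genes were called after KBrO3 and 57.7% with co-exposure. Tnf was called lower after KBrO3 (limma adjusted p = 3.05e-07), by a size that was not measured because 1 of 3 arrays was above background at 24 hr, and was at least 10.96-fold lower with co-exposure. That bound holds only under the processing used here, as the fitted log2 difference ranged from -5.39 to -2.37 under other settings. Tnfsf10 differed by 1.42 ± 0.06 and 1.86 ± 0.06. Under normexp background correction those Tnfsf10 calls were lost, at 0.22 and 0.72 (limma adjusted p = 0.584 and 0.0722), and with spots far below their local background raised they were 0.32, under the fold of 1.5, and 0.92, which was called. Traf1 with co-exposure, at 0.64, was 0.57 and 0.58 under these settings, also under the fold, and Tnfrsf12a after KBrO3 was -0.55 under quantile normalization. With BPA alone 4 of 10 were lower at 24 hr than at 4 hr, where 4.35% of all genes were called, and 0 of 10 were called with slide as a fixed block, under normexp background correction or at the Bonferroni threshold. These were Tnfsf10 (-1.97, limma adjusted p = 0.000954), Tnf (-1.52, limma adjusted p = 0.00404), Traf1 (-1.52, limma adjusted p = 0.00598) and Tnfrsf11b (-1.26, limma adjusted p = 0.0103), and the last was lost without BPA 4 hr replicate 3 (limma adjusted p = 0.058). Over all settings the differences stayed below 0, from -1.97 to -1.40 for Tnfsf10, -1.75 to -0.70 for Tnf, -1.53 to -1.33 for Traf1 and -1.37 to -1.08 for Tnfrsf11b. Tnfsf11 did not drop back, with a difference of 0.42 (95% confidence interval -0.49 to 1.34). The step that BPA added to KBrO3 was called as different between 24 hr and 4 hr for 1 of 9 members, Tnf (limma adjusted p = 0.0314), where 26.9% of all genes were called. Its size is not measured, since at 24 hr Tnf was above background on 1 of 3 arrays after KBrO3 and 0 of 3 with co-exposure. That call was lost in 7 of 15 fits that left out an array and with slide as a random block (limma adjusted p = 0.383).

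The rest of the family was counted through 66 further genes, 14 ligands, 23 receptors and 29 adaptors or regulators. At 4 hr after KBrO3, 16 of 53 tested rose and 13 fell, where 44% of all genes were called. Among them Ltb, a lymphotoxin subunit, rose 4.68-fold (limma adjusted p = 2.31e-11) and the orphan receptor Relt rose 4.42-fold (limma adjusted p = 1.08e-11), while the ectodysplasin receptor Edar was 4.89-fold lower, above background on 2 of 3 arrays (limma adjusted p = 0.013), and the HVEM receptor Tnfrsf14 at least 2.93-fold lower (limma adjusted p = 7.69e-07). The SE of Edar was 0.72 on the log2 scale in each comparison of this set with untreated cells. For Ltb and Relt the SE was 0.07 and 0.06 at 4 hr after KBrO3. At 24 hr after KBrO3, 10 rose and 14 fell, where 33.7% of all genes were called, with the GITR receptor Tnfrsf18 4.18-fold and the decoy TRAIL receptor Tnfrsf22 2.57-fold higher (limma adjusted p = 1.05e-08 and 0.000139). The 4-1BB receptor Tnfrsf9 was then called lower, with 1 of 3 arrays above background, and Edar was 5.75-fold lower (limma adjusted p = 4.47e-11 and 0.00846). With co-exposure 22 rose and 19 fell at 4 hr, where 54.7% of all genes were called. The Fas ligand Fasl was at least 2.26-fold (SE 0.91 on the log2 scale, limma adjusted p = 0.0134) and Ltb 6.68-fold higher (limma adjusted p = 3.2e-12), Edar was 4.55-fold lower (limma adjusted p = 0.0152), and Tnfrsf14 was called lower with 1 of 3 arrays above background (limma adjusted p = 2.42e-07). At 24 hr of co-exposure 13 rose and 20 fell, where 39.6% of all genes were called. Tnfrsf18 was 12.6-fold (limma adjusted p = 4.12e-11) and the p53-responsive receptor Eda2r 8.72-fold higher (limma adjusted p = 3.49e-13), Edar was called lower with 1 of 3 arrays above background (limma adjusted p = 0.000276) and Tnfrsf9 at least 5.12-fold lower (limma adjusted p = 4.35e-11). With BPA alone 8 of 59 rose and 1 fell at 4 hr, where 4.69% of all genes were called. The largest rise was that of Tnfaip3, the A20 enzyme that limits TNF signaling, at 7.73-fold (limma adjusted p = 0.000755), followed by the CD30 ligand Tnfsf8 at 7.31-fold against untreated cells with 2 of 3 arrays above background (limma adjusted p = 0.012), and the death receptor Tnfrsf25 was 2.10-fold lower (limma adjusted p = 0.0287). At 24 hr of BPA 2 of 59 rose, where 4.3% of all genes were called, namely Eda2r at 4.44-fold (limma adjusted p = 0.00526) and Tnfrsf9, with 1 of 3 untreated arrays above background (limma adjusted p = 0.00663).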

How the data were processed

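RNA from 24 samples was labelled with Cy3 and hybridized to Agilent 1-color mouse arrays. The authors extracted the scans with Agilent Feature Extraction (12.0 in the submitters' processing notes, 9.5.3.1 in the headers of the KBrO3 set and 12.0.0.7 in those of the BPA set). The deposited processed signal is a background-subtracted intensity, and the table of the whole series held the same values. Here log2 of that intensity was taken minus the 75th percentile of each array, outlier spots were set aside and spots of a probe were averaged. A probe was tested where all arrays of 1 or more groups in its set had it well above background, and a gene was represented by its brightest probe. Each set was fitted by group with limma 3.58.1 (R 4.3.3), two-sided, and the comparison between sets used all 24 arrays with a weight for each set. Where a group was not above background on any array, its fold is a bound, the mean of the bright group against the dim group's mean of, on each array, the higher of the lowest signal well above background and the probe's own. Probe coordinates are those of the scanner files of the KBrO3 set (mm7), and the place of a probe within exons or UTRs is not given in the sources used here. Fits were also run on simulated data with independent noise and no slide effect, which cannot test the part of the slide.

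All 10 members are reported, and of 66 other family genes those called with the 2 strongest rises and 2 strongest falls against untreated cells are named. The members and lists were chosen with earlier results of these data known. Alternatives were other normalizations, background corrections, filters, thresholds, blocks and fits without each array. With 3 arrays a group, their number limits the precision.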

Additional observations from a re-analysis of the deposited data

Results flagged for a closer look

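The following effects differed between times or between sets by a test of the difference itself. From 4 hr to 24 hr after KBrO3 the log2 difference was -4.04 for Tnf, -3.94 for Tnfsf11, -2.06 for Tnfrsf1b, -1.37 for Tnfrsf12a, 1.42 for Tnfsf10 and 1.09 for Traf1. From 4 hr to 24 hr of co-exposure it was -5.38 for Tnf, -3.71 for Tnfsf11, -1.73 for Tnfrsf1b, -1.20 for Tnfrsf12a, 1.86 for Tnfsf10 and 0.64 for Traf1. The Tnfsf11 values, and that of Tnf with co-exposure, are fitted against a 24 hr group with 0 of 3 arrays above background, and that of Tnf after KBrO3 against one with 1 of 3, so these are not measured sizes. From 4 hr to 24 hr of BPA alone it was -1.52 for Tnf, -1.97 for Tnfsf10, -1.26 for Tnfrsf11b and -1.52 for Traf1. For Tnf the fitted change between 4 hr and 24 hr in the step that BPA added to KBrO3 was -1.35, which is not a measured size because Tnf was above background on 1 of 3 and 0 of 3 arrays of the 24 hr groups, and its call was lost in 7 of 15 fits without an array. BPA added to KBrO3 and BPA alone differed at 4 hr by -2.53 for Tnfsf10, -2.44 for Tnfsf11, -1.54 for Tnfrsf1b, -1.65 for Tnfrsf11b, -1.23 for Tnfrsf12a and -1.003 for Traf1, and the fitted gap at 24 hr was -2.64 for Tnfsf11, not a measured size since Tnfsf11 was below background on all arrays of both 24 hr KBrO3 groups, and a call lost in 5 of 12 other settings and 2 of 24 fits without an array. Groups of 3 arrays were not tested for single outlying arrays.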

How the results depend on the processing

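Over 52 calls of members, 671 refits under other settings kept 588, lost 82 and turned 1, and 771 refits without an array kept 755 and lost 16. Quantile normalization gave 0 calls for BPA added at 4 hr, 4 at 24 hr, 3 for the change of that step with time and 0 between the sets at 24 hr. Scaling to the array median, which moved the median of all genes to 0.26 at 24 hr of co-exposure, gave 7 calls there, 0 and 3 for BPA added at 4 hr and 24 hr and 5 for the change of that step. Normexp correction gave 0 calls for BPA alone at both times and between them, for BPA added at 4 hr, for the change of that step and between the sets at 24 hr, and 2 between the sets at 4 hr. With it the Tnfsf11 gap between the sets at 24 hr was 0.095 and the Tnfsf9 difference at 24 hr after KBrO3 was -0.78. Spots over 100 units below local background numbered 9 on untreated replicate 2 of the KBrO3 set and 8 on BPA 4 hr replicate 3. There were 6 on untreated replicate 1 of the BPA set and 3 or fewer on every other array. Raising such spots, chosen after seeing the data, gave 0 calls only for BPA added at 4 hr and between the sets at 24 hr. Keeping only probes above background on all arrays, which tests fewer genes, gave 2 calls in each comparison of the KBrO3 set with untreated cells, 1 at 24 hr of BPA, 3 between times in each KBrO3 exposure, and 0 for the change of the step and between the sets at 24 hr. The Bonferroni threshold gave 3 calls at 4 hr after KBrO3, 1 at 4 hr of BPA, 1 between the sets at 4 hr, and 0 at 24 hr of BPA, between the times of BPA, for BPA added at 24 hr, for the change of the step and between the sets at 24 hr. An error-weighted linear model without moderation gave 0 between the sets at 24 hr and lost Tnfsf11 at both times of BPA. Fitting only the arrays compared gave 1 call at 24 hr of BPA. Slide as a random block gave 0 calls for BPA added at 4 hr and for the change of the step and 3 between the sets at 24 hr, and slide as a fixed block gave 0 for BPA alone at both times and between them. With outlier spots kept, 2 were called for BPA added at 24 hr. The dimmer Tnfrsf1b probe gave -0.94 for the change of the step, 0.75 between the sets at 4 hr, -0.13 at 24 hr of BPA and -0.052 for BPA added at 24 hr. Without single arrays the calls ranged from 0 to 1 for BPA added at 4 hr, the change of the step and between the sets at 24 hr, from 0 to 2 for BPA added at 24 hr, from 1 to 2 at 24 hr of BPA, from 3 to 4 between the times of BPA, and from 4 to 5 at 24 hr of co-exposure. With the replicate block, whose numbers did not pair the arrays (mean correlation of same-numbered deviations -0.03 in the KBrO3 set), 52 of 52 calls were kept. The cause of these shifts was not tested. Signal near background limits Tnf, Tnfsf11 and, in the KBrO3 set, Cd40. It also limits Tnfsf10 at 4 hr after KBrO3, where 2 of 3 arrays were above background.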
